A study of Mus musculus with 32 samples.

Results

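Acp5 and Ctsk encode the enzymes most often used to recognise osteoclasts, the cells that resorb bone. They were followed in RNA sequencing of mouse synovium, the soft tissue that lines a joint. Both were taken by name, 2 genes of the 1178 in the synovium table, because earlier results of these data had shown Acp5 low and Ctsk high in MMS D14 synovium and Ctsk high in MMS D3 synovium. All samples came from C57BL/6 mice, in the groups MMS D3, MMS D7, MMS D14, R1, R2 and Control, with n = 3 synovium samples in each of the 6. The labels spell out neither MMS, R1 nor R2, give no unit for the numbers after D, no age, and no word on whether a sample is 1 animal or a pool, so p-values measure only the spread between samples. Cartilage was sampled as well (n = 2 per group, MMS D28 included), but the cartilage table of 1606 selected genes lists neither gene.

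Osteoclasts arise from the monocyte and macrophage lineage when the cytokine M-CSF and the membrane ligand RANKL act on precursor cells. The mature cell seals off a patch of bone, acidifies it and digests the exposed collagen. Ctsk encodes cathepsin K, a lysosomal cysteine protease that cuts the collagen triple helix in that acid space. Acp5 encodes tartrate-resistant acid phosphatase, the enzyme behind the TRAP stain. Neither gene is restricted to osteoclasts: macrophages and dendritic cells also make Acp5, and fibroblasts, those of the synovium among them, also make Ctsk. Both promoters are textbook targets of NFATc1, PU.1 and MITF in osteoclasts.

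Acp5 lies on chromosome 9, from 22126727 to 22135711 on the minus strand of GRCm38 (ENSMUSG00000001348.15). It has 5 protein-coding transcripts in GENCODE vM21 and 3 transcription starts in RefSeq, and a gene-level value sums over all of them. The non-coding gene 6530413G14Rik covers the whole span of Acp5 on the other strand. Overlap of their exons was not examined, and whether strand was used in counting is not given in the sources used here. Whether reads of 6530413G14Rik enter the Acp5 value is therefore not known. Ctsk lies on chromosome 3, from 95499256 to 95509362 on the plus strand (ENSMUSG00000028111.4), with 1 protein-coding transcript and no overlapping gene.

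The sequences just before the starts are shown because the genes share their known osteoclast regulators while their RNA went opposite ways here. Each line gives the 250 bases before a RefSeq start (GRCm38.p6), written in the direction of transcription. For Acp5 the window is that of the most downstream of its 3 RefSeq starts, chr9:22130599-22130848 on the minus strand. For Ctsk it is chr3:95498960-95499209 on the plus strand. Capitals mark every match on either strand to the NFAT core GGAAA, the PU.1 box GAGGAA, the E-box CANNTG or the MITF M-box TCATGTG.
Acp5: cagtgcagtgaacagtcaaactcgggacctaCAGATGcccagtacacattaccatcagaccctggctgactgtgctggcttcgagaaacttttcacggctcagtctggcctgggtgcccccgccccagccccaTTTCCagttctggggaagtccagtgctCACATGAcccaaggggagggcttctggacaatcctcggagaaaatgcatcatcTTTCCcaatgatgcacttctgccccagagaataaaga
Ctsk: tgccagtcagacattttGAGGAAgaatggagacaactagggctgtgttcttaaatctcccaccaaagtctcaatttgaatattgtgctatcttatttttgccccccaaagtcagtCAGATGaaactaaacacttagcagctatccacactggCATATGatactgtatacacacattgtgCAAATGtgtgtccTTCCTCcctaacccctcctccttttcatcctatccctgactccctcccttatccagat
The Acp5 window held 2 NFAT cores, 2 E-boxes and 1 M-box that overlaps the second E-box, and no PU.1 box. The Ctsk window held 2 PU.1 boxes and 3 E-boxes, and neither an NFAT core nor an M-box. An AP-1 site, TGANTCA, was in neither. The windows of the other Acp5 starts are not shown. That of the most upstream start held 1 NFAT core and 2 E-boxes, and that of the middle start 1 NFAT core and 1 E-box. These further Acp5 windows held no M-box, PU.1 box or AP-1 site, so the M-box belongs to 1 of the 3 Acp5 starts. Of 32851 RefSeq windows of this length, 55.6% held the NFAT core, 23.3% the PU.1 box, 66.2% the E-box, 6.7% the AP-1 site and 3.3% the M-box. Such matches are letters in a window, and nothing about binding was measured.

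The values are FPKM, a read density scaled to transcript length and library size, so the levels of both genes can be set side by side. The table holds selected genes by an unstated rule, and 98.0% of them differed at least 1.5-fold between the means of MMS D14 and Control. That share was 49.7% for MMS D3, 82.5% for MMS D7, 59.5% for R1 and 57.3% for R2. The share of all genes whose samples did not overlap between groups was not computed, so no such separation given below sets either gene apart. Total reads are not given, so depth is unknown. A set of 5 libraries, replicate 3 of MMS D3, MMS D7, MMS D14, R2 and Control, stood apart from all others on principal component 3 of all genes, which held 4.70% of the variance. The osteoclast list of 20 genes has these 2 in the table. The other 18, among them the calcitonin receptor, the fusion protein DC-STAMP and the osteoclast proton pump, are not among the selected genes and were not analysed here, so the table has no further gene by which to check the osteoclast label.

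Acp5 was among the more abundant listed genes in every sample, and it was highest in Control. Control samples had 435, 379.92 and 293.61 FPKM of Acp5. MMS D3 samples had 175.16, 232.74 and 249.16 FPKM, MMS D7 samples had 188.14, 182.37 and 128.32 FPKM, and MMS D14 samples had 109.25, 114.12 and 93.70 FPKM. Thus every MMS sample lay below every Control sample, and every MMS D14 sample lay below every MMS D3 and MMS D7 sample, while MMS D3 and MMS D7 overlapped. R1 samples had 205.42, 200.36 and 208.80 FPKM and R2 samples had 187.66, 200.76 and 182.32 FPKM. Both sets sat in a narrow band between MMS D14 and Control without touching either. The coefficient of variation was 2.07% in R1 and 4.99% in R2, and 10.1% to 19.8% in the other groups.

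Ctsk ran the other way, lowest in Control and highest in MMS D14. Control samples had 64.09, 80.10 and 95.30 FPKM of Ctsk. MMS D3 samples had 144.30, 181.66 and 277.38 FPKM, MMS D7 samples had 226.85, 193.55 and 253.98 FPKM, and MMS D14 samples had 269.56, 309.42 and 362.23 FPKM. No MMS sample was as low as any Control sample. The MMS D3 group was the most scattered, with a coefficient of variation of 34.1%, and its highest sample exceeded the lowest MMS D14 sample. R1 samples had 194.89, 162.99 and 195.59 FPKM and R2 samples had 174.51, 161.39 and 200.61 FPKM. These 6 samples were all above Control and all below MMS D14.

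**Figure D1:**
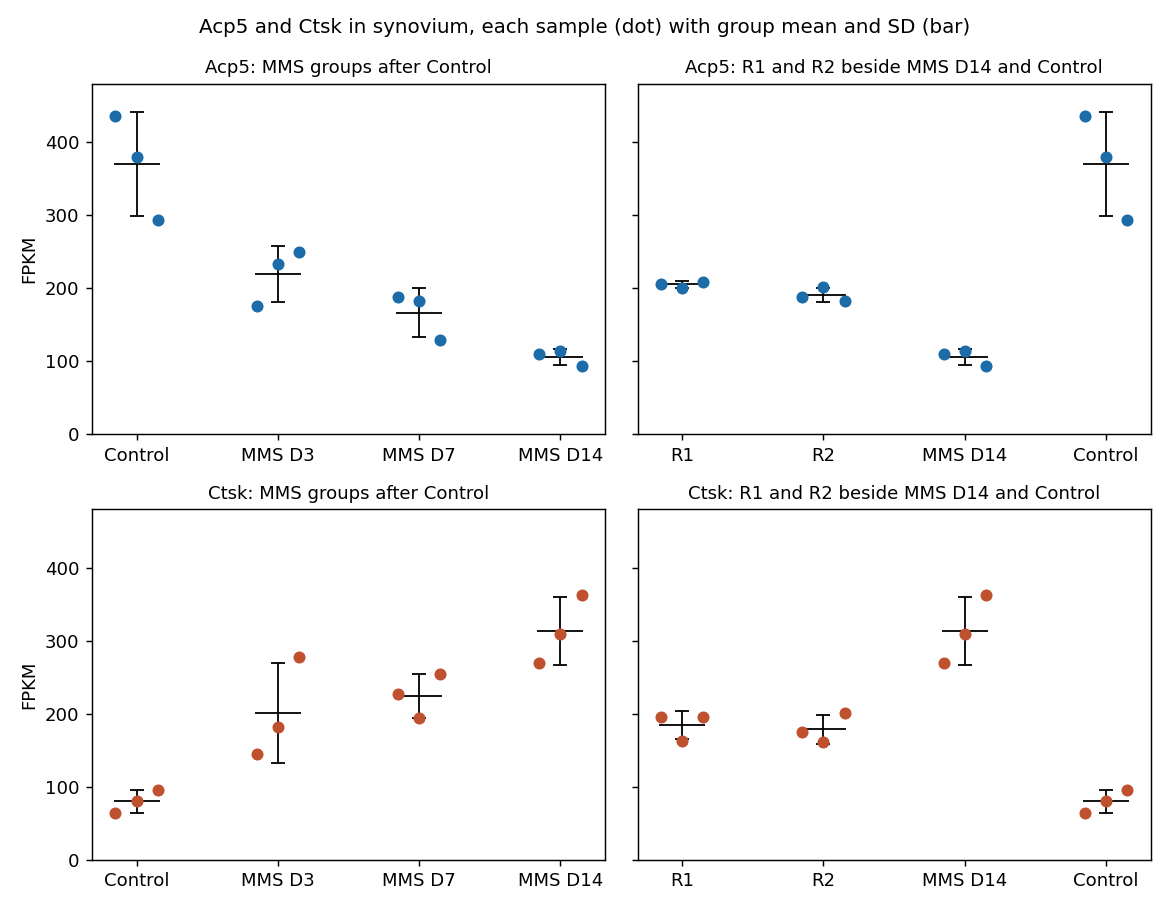
FPKM of Acp5 (upper row) and Ctsk (lower row) in each synovium sample (dots), with group mean and SD (bars, n = 3); the left column runs from Control through MMS D3 and MMS D7 to MMS D14, and the right column sets R1 and R2 beside MMS D14 and Control. Acp5 averaged 106 at MMS D14 and 369.5 in Control, Ctsk averaged 314 at MMS D14 and 79.8 in Control, and R1 and R2 lay between for both genes.

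In order of mean level, Acp5 stood at 369.5 ± 71.3 FPKM in Control, 219 ± 38.9 at MMS D3, 205 ± 4.25 in R1, 190.2 ± 9.49 in R2, 166 ± 33.0 at MMS D7 and 106 ± 10.7 in MMS D14 (SD, n = 3 each). Neighbours from MMS D3 to MMS D7 in that order overlapped in their samples. Control stood clear above its neighbour and MMS D14 clear below its own. For Ctsk the order was 314 ± 46.5 FPKM in MMS D14, 225 ± 30.3 at MMS D7, 201 ± 68.6 at MMS D3, 184 ± 18.6 in R1, 179 ± 20.0 in R2 and 79.8 ± 15.6 in Control. MMS D14 did not overlap MMS D7, and R2 did not overlap Control, while the neighbours between them overlapped.

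The 2 enzymes changed places as the more abundant transcript. The ratio of Ctsk to Acp5 within a sample was 0.147, 0.211 and 0.325 in Control, 0.824, 0.781 and 1.11 at MMS D3, 1.21, 1.06 and 1.98 at MMS D7, and 2.47, 2.71 and 3.87 in MMS D14. Every MMS D7 and MMS D14 sample thus had more Ctsk than Acp5, and every Control sample had less. R1 samples stood at 0.949, 0.813 and 0.937 and R2 samples at 0.930, 0.804 and 1.10, close to equal levels and within the range of the MMS D3 samples. Opposite directions were a reason for choosing the pair, so these ratios are a description without a test. In all 5 groups with a library that stood apart, that library had the highest Ctsk and the highest ratio of its group, and in 4 of the 5 it had the lowest Acp5. The part of that set in the levels was not tested, beyond the values without it that are given below.

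**Figure D2:**
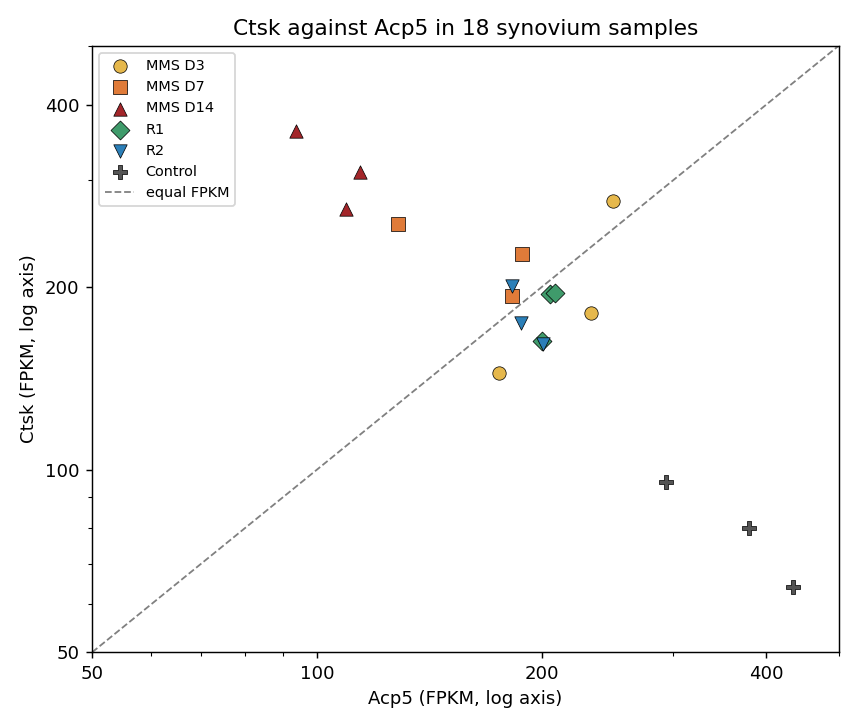
Ctsk against Acp5 in the 18 synovium samples, both in FPKM on log axes, with the dashed line at equal levels; each symbol is a sample. MMS D14 samples lie at the upper left with ratios of 2.47 to 3.87, R1 and R2 samples lie near the line, and Control samples lie at the lower right with ratios of 0.147 to 0.325.

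Against Control, the choice of the pair had used MMS D14 and MMS D3, so these changes are given without a test. On the log2(FPKM + 1) scale the change of Acp5 was -1.78 at MMS D14 and -0.75 at MMS D3, and that of Ctsk was 1.97 at MMS D14 and 1.29 in MMS D3. A gene was called when its limma p-value, adjusted over all 1178 genes, was under 0.05. In MMS D14 96.9% of all genes were called, 27.7% higher and 69.3% lower, and in MMS D3 55.9%, 16.3% higher and 39.6% lower. Without the 5 libraries that stood apart, the change of Acp5 in MMS D3 was -1.01. The median change of all genes was -1.08 at MMS D14 and -0.34 in MMS D3. Relative to it, Acp5 stood at -0.70 at MMS D14 and -0.40 at MMS D3, and Ctsk at 3.05 and 1.63 in the same order of groups.

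MMS D7 had no part in the choice of the pair, though it is set against the same Control samples. Whether it had a part in the unstated selection of the table is not known, so its tests are no independent check. Acp5 averaged 166 FPKM in MMS D7 and 369.5 FPKM in Control, a log2 change of -1.15 ± 0.18 (SE, adjusted p = 3.51e-05 by limma). Ctsk averaged 225 FPKM in MMS D7 and 79.8 FPKM in Control, a log2 change of 1.49 ± 0.21 (SE, adjusted p = 1.67e-05 by limma). Every MMS D7 sample lay outside the Control range for both genes, and the share of all genes that did so was not computed. Of all genes 85.7% were called, 61.6% lower and 24.1% higher, so a call by itself sets neither gene apart. The median change of all genes was -0.65, relative to which Acp5 stood at -0.50 and Ctsk at 2.14. Of all genes, 91.4% had a lower change than Ctsk and 15.6% a lower one than Acp5.

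R1 and R2 showed both genes displaced from Control in the direction of the MMS groups, in tests that share the Control samples with the contrasts that chose the pair. Acp5 averaged 205 FPKM in R1 and 369.5 FPKM in Control, a log2 change of -0.83 ± 0.18 (SE, limma adjusted p = 0.00121). In R2 it averaged 190.2 FPKM, with a log2 change of -0.94 ± 0.18 against the same Control samples (limma adjusted p = 0.000602). Of all genes 61.1% were called in R1 and 60.8% in R2, of which 45.2% and 45.1% of all genes were lower. A lower change than that of Acp5 was found for 20.4% of genes in R1 and 13.2% in R2. Ctsk averaged 184 FPKM in R1 and 79.8 FPKM in Control, a log2 change of 1.21 ± 0.21 (SE, limma adjusted p = 0.000298). In R2 it averaged 179 FPKM, with a log2 change of 1.17 ± 0.21 (limma adjusted p = 0.000434). Here 15.9% of all genes were called higher in R1 and 15.7% in R2, and the change of Ctsk exceeded that of 96.1% of genes in R1 and 95.3% in R2. With each sample centred on its median, calls over all genes split into 245 higher and 419 lower for R1 and 252 higher and 365 lower for R2, against 187 and 533 in R1 and 185 and 531 in R2 as deposited. The median change of all genes was -0.38 in both, relative to which Acp5 stood at -0.45 in R1 and -0.56 in R2, and Ctsk at 1.59 in R1 and 1.54 in R2.

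Set against MMS D14, R1 and R2 had both genes displaced towards Control. The choice of the pair used these MMS D14 values, so the differences are given without a test. Acp5 averaged 205 FPKM in R1 and 106 FPKM in MMS D14, a log2 change of 0.95, and 190.2 FPKM in R2, a log2 change of 0.85. Ctsk averaged 184 FPKM in R1 and 314 FPKM in MMS D14, a log2 change of -0.76, and 179 FPKM in R2, a log2 change of -0.80. All 12 values of R1 and R2 lay outside the MMS D14 range, a separation whose share over all genes was not computed. Of all genes, 89.0% were called in R1 (63.2% higher, 25.8% lower) and 88.5% in R2 (63.0% higher, 25.5% lower). After centring, the R1 calls split into 474 higher and 331 lower, against 745 and 304 as deposited. The median change of all genes was 0.65 in R1 and 0.64 in R2. Relative to it Acp5 stood at 0.31 in R1 and 0.21 in R2, and Ctsk at -1.40 in R1 and -1.44 in R2.

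R2 and R1 did not differ past the threshold in either gene. The log2 change of R2 against R1 was -0.11 for Acp5, with a 95% interval of -0.49 to 0.27, and -0.05 for Ctsk, with an interval of -0.50 to 0.40 (limma adjusted p = 0.968 and 0.991). The sign for Ctsk turned to 0.03 without R2 replicate 2. No gene of the table was called by limma in that comparison (0%), with 52 at an unadjusted p under 0.05, and 14 genes were called without the 5 libraries that stood apart.

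The steps between successive MMS groups were smaller, and they too are given without a test because the choice of the pair used MMS D3 and MMS D14 values. The log2 change of MMS D7 against MMS D3 was -0.40 for Acp5 and 0.20 for Ctsk, with overlapping samples in both genes. Without MMS D3 replicate 1, which had the lowest values of both genes in its group, it was -0.55 for Acp5 and -0.01 for Ctsk, and without the 5 libraries that stood apart it was -0.12 for Acp5. Of all genes 30.4% were called in that comparison, 18.3% lower and 12.1% higher. In MMS D14 against MMS D7 the log2 change was -0.63 for Acp5 and 0.48 for Ctsk. Every MMS D14 sample lay below every MMS D7 sample in Acp5 and above every one in Ctsk. With samples centred on their medians these changes were -0.39 for Acp5 and 0.72 for Ctsk. Of all genes, 55.9% were called in MMS D14 against MMS D7, 43.4% lower and 12.6% higher. Centring turned the split of calls to 203 higher and 204 lower, against 148 and 511, and in MMS D7 against MMS D3 to 190 higher and 112 lower, against 142 and 216.

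The other osteoclast pathway genes of the table were few. Of 16 listed signals for osteoclast formation 2 were in it. Il34, a second ligand of the M-CSF receptor, averaged 26.6 ± 3.09 FPKM in Control, 13.8 ± 3.34 at MMS D3, 12.0 ± 1.87 at MMS D7 and 11.1 ± 1.89 at MMS D14, and 21.2 ± 1.19 in R1 and 23.0 ± 3.52 in R2 (SD, n = 3 each). It was called lower by limma in all 3 MMS groups against Control (log2 changes of -0.91, -1.09 and -1.19 at MMS D3, MMS D7 and MMS D14), and in neither R1 nor R2 (log2 changes of -0.31 and -0.20). Sfrp1, a secreted Wnt inhibitor that also binds RANKL, was called higher in the same 3 groups (log2 changes of 0.90, 1.62 and 1.58) and not in R1 or R2 (0.03 and 0.25). Over all genes, 39.6%, 61.6% and 69.3% were called lower in MMS D3, MMS D7 and MMS D14, and 16.3%, 24.1% and 27.7% higher. Acp5 and Ctsk were called in R1 and R2 against Control, as were 61.1% and 60.8% of all genes, and Il34 and Sfrp1 were not. The difference between these genes was not tested. Of 24 listed cathepsins and lysosomal enzymes, none other than Ctsk was in the table.

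Genes of other cell types in the tissue moved beside the pair. RNA was taken from whole tissue, so fewer cells of a type and less RNA per cell cannot be told apart. All 14 listed adipocyte genes were in the table, and their summed level was 14214 to 24530 FPKM at MMS D3, 13225 to 14452 at MMS D7, 4962 to 8138 at MMS D14, 14572 to 16391 for R1 and 14190 to 16255 for R2, against 28996 to 34855 in Control. Against Control, 7, 12 and 14 of the 14 were called lower in MMS D3, MMS D7 and MMS D14, 14 in R1 and 13 in R2, and none higher. Over all genes the share called lower was 39.6%, 61.6% and 69.3% for the MMS groups in that order, 45.2% for R1 and 45.1% for R2, so the 7 of 14 for MMS D3 lay near the share of the whole table. Their median log2 change was -0.54, -1.24 and -2.47 at MMS D3, MMS D7 and MMS D14, -1.04 in R1 and -1.08 in R2, beside -0.75, -1.15, -1.78, -0.83 and -0.94 for Acp5 in the same order. Among the 20 macrophage markers only 2 were in the table, Timd4 and Lyve1. Their summed level was 50.9 to 60.0 FPKM at MMS D3, 47.5 to 84.4 at MMS D7 and 32.6 to 45.3 at MMS D14. It was 80.1 to 143 for R1 and 63.8 to 108 for R2, against 115 to 128 in Control. Most of that sum was Lyve1, which averaged 110 FPKM in Control, where Timd4 averaged 11.2 FPKM. Timd4 and Lyve1 were both called lower in all 3 MMS groups and R2, and 1 of them in R1, beside the same shares of all genes called lower. The part of either cell type in the level of Acp5 was not tested.

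Acp5 was also expressed as a share of the summed adipocyte level. It was 1.12 ± 0.108% of that sum at MMS D3, 1.19 ± 0.191% at MMS D7, 1.78 ± 0.552% at MMS D14, 1.34 ± 0.0686% for R1 and 1.23 ± 0.0995% for R2, against 1.16 ± 0.127% in Control (SD, n = 3 each). MMS D14 was the most scattered, and every group but R1 overlapped Control. Cfd, the adipocyte complement factor adipsin, made up 40.3% to 58.0% of the sum. Without Cfd the share was 2.12 ± 0.379% at MMS D3, 2.37 ± 0.654% at MMS D7, 3.56 ± 1.39% at MMS D14, 3.06 ± 0.211% for R1 and 2.68 ± 0.578% for R2, against 2.55 ± 0.643% in Control. Then R1, at 2.87% to 3.29%, overlapped Control, at 1.81% to 2.97%, as well. Over the sum of the 2 macrophage markers, Acp5 stood at 304 ± 52.6% in Control. It was 399 ± 99.7% at MMS D3, 264 ± 45.1% at MMS D7 and 276 ± 30.9% at MMS D14. For R1 it was 210 ± 61.8% and for R2 254 ± 75.5%, and every group overlapped Control. These measures were chosen after the values were seen and carry no test.

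Ctsk moved beside genes of collagen matrix and its turnover. Of the 20 on that list 15 were in the table, and against Control 10, 14 and 14 were called higher in MMS D3, MMS D7 and MMS D14, 14 in R1 and 12 in R2, with 1 called lower in MMS D14 and none elsewhere. Their median log2 change was 0.88, 1.82 and 2.50 at MMS D3, MMS D7 and MMS D14, 0.96 in R1 and 1.11 in R2, beside 1.29, 1.49, 1.97, 1.21 and 1.17 for Ctsk. Their summed level was 4261 to 6581 FPKM at MMS D3, 9798 to 12651 at MMS D7, 15163 to 17356 at MMS D14, 5651 to 6649 for R1 and 5315 to 7410 for R2, against 2628 to 2950 in Control. Of the 15 fibroblast markers 6 were in the table, and 5 of them were called higher in MMS D3 and all 6 in every other group. The share of all genes called higher, for both lists, was 16.3%, 24.1% and 27.7% for MMS D3, MMS D7 and MMS D14, 15.9% for R1 and 15.7% for R2. Col1a1, the main chain of fibrillar collagen and a member of both lists, averaged 4216 ± 866 FPKM in MMS D14 and 586 ± 66.1 FPKM in Control (SD, n = 3 each). As a share of the summed collagen list, Ctsk was 3.93 ± 2.28% at MMS D3, 1.99 ± 0.0171% at MMS D7, 1.92 ± 0.419% at MMS D14, 3.04 ± 0.383% for R1 and 2.79 ± 0.857% for R2, against 2.87 ± 0.728% in Control. MMS D7, at 1.98% to 2.01%, lay wholly below Control, at 2.17% to 3.63%, and every other group overlapped Control. This share was not planned and carries no test. The part of fibroblasts in the level of Ctsk was not tested.

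**Figure D3:**
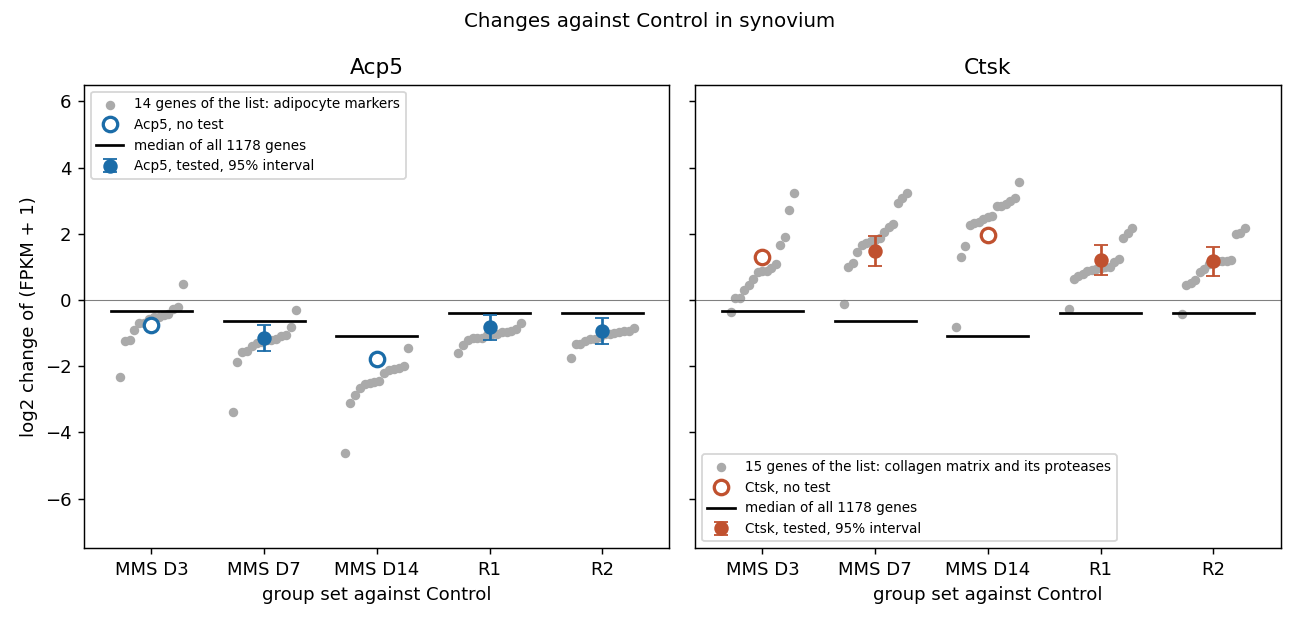
Log2 change of (FPKM + 1) against Control for Acp5 beside the 14 adipocyte genes (left, grey) and for Ctsk beside the 15 genes of collagen matrix and its proteases (right, grey), with the median of all 1178 genes as a black bar; filled symbols have a 95% interval from limma, and open symbols mark the 2 comparisons that are not tested. Acp5 lies among the grey adipocyte genes and below the black bar in every group, and Ctsk lies among the collagen genes and above it.

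Genes whose pattern was most like each member were sought by Pearson correlation of log2(FPKM + 1) over the 18 samples, which share their groups and the selection of the table. Most like Acp5 were Cat, the peroxisomal enzyme catalase (r = 0.99), Sh3glb2 (0.98), the mitochondrial fusion factor Miga2 (0.97), the carnitine acetyltransferase gene Crat (0.97) and Cpt2, which brings fatty acids into mitochondrial oxidation (0.97). Cat matched Acp5 in level as well as in shape, at 203 FPKM at MMS D3, 148 at MMS D7, 85.8 at MMS D14, 198 for R1 and 186 for R2, against 369 in Control. The r of Cat was 0.88 over deviations from the group means, a measure added after the values were seen. Least like Acp5 were Enpp1 (-0.96), an enzyme that makes pyrophosphate, the actin-binding protein gene Cnn3 (-0.96) and Thbs4 (-0.95). Most like Ctsk were the membrane protein gene Gpm6b (0.92), Cnn3 (0.90), Clba1 (0.90), Mmp3, which encodes stromelysin (0.89), and the mesenchymal cadherin gene Cdh11 (0.89). Of these, Mmp3 and Cnn3 fell to 0.25 and 0.37 over deviations from the group means, and Gpm6b stood at 0.82. Least like Ctsk were Tmem143 (-0.94), the peroxisomal glutathione transferase gene Gstk1 (-0.93) and Lman2l (-0.93). The genes in first place shifted with the measure: over group means 0 of the 5 for Acp5 and 1 of the 5 for Ctsk stayed among the 5 most alike.

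The lists split the pair in the same way. Over the 18 samples all 14 adipocyte genes correlated positively with Acp5 (median r = 0.91, 0.56 to 0.97) and all 14 negatively with Ctsk (median -0.75, -0.89 to -0.41). All 6 fibroblast markers correlated negatively with Acp5 (median -0.91) and positively with Ctsk (median 0.81). The median over all 1177 other genes was 0.73 for Acp5 and -0.61 for Ctsk, in a table where 69.3% of genes were called lower in MMS D14 against Control. Of those 1177 genes, 71.3% correlated positively with Acp5 and 29.0% with Ctsk. Over deviations from the group means, 10 of the 14 adipocyte genes still correlated positively with Acp5 (median 0.47, against 0.14 over all genes), the highest being Pnpla2, the main triglyceride lipase (0.87). Ctsk did not keep its side there: its median with the fibroblast markers was -0.35 and with the adipocyte genes 0.27, and its correlation with Acp5 was -0.13.

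**Figure D4:**
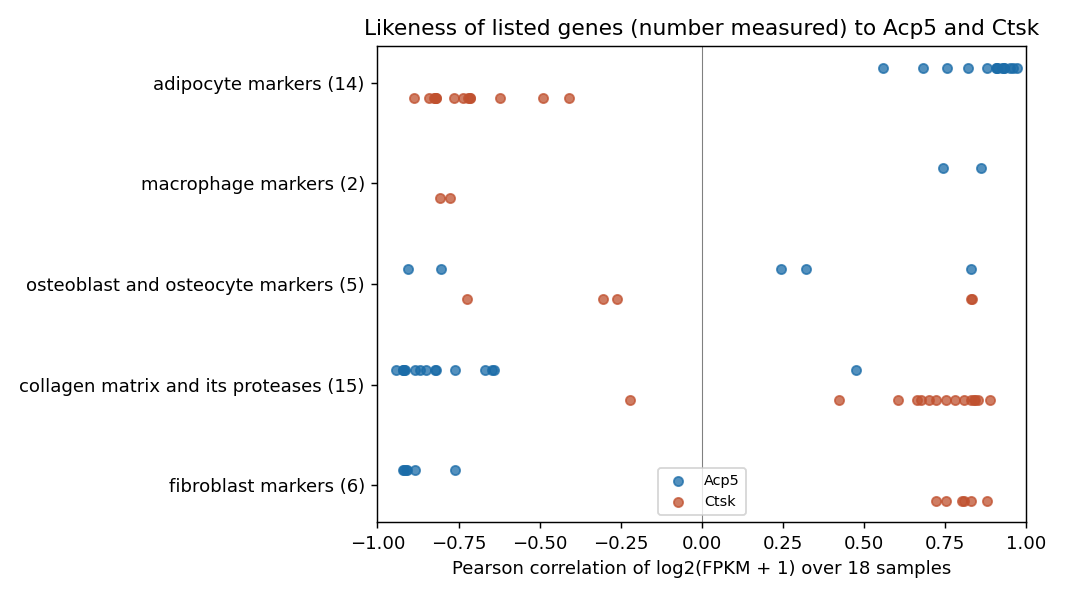
Pearson correlation of log2(FPKM + 1) over 18 samples between each listed gene (a dot) and Acp5 or Ctsk, by gene list, with the number of measured genes in brackets. All 14 adipocyte genes lie right of zero for Acp5 and left of zero for Ctsk, and all 6 fibroblast markers the other way round. Over all 1177 other genes, not drawn, 71.3% correlated positively with Acp5 and 29.0% with Ctsk.

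Bone-forming cells and marrow were looked at through their own markers. Of 14 osteoblast and osteocyte markers 5 were in the table. They did not move together. Spp1 and Ibsp, both matrix phosphoproteins of bone, were called higher in all 3 MMS groups and had an r of 0.83 each with Ctsk over samples. They were called higher in R1 and R2 as well (log2 changes of 3.37 and 2.67 for Spp1, 1.11 and 1.87 for Ibsp). Bglap2, an osteocalcin gene, was called lower in MMS D3 and MMS D14 (log2 changes of -1.15 and -0.84). Alpl, the bone alkaline phosphatase, was called lower in MMS D7 and MMS D14 (-0.50 and -0.96), and Bglap in MMS D3 (-0.90). In R1 and R2 Bglap was called higher (1.24 and 0.82) and Alpl lower (-0.45 and -0.49). Bglap2 was called higher in R1 (0.94) and not called in R2 (0.58). The r with Ctsk was -0.30 for Bglap2, -0.72 for Alpl and -0.26 for Bglap, and the median of the 5 was -0.26. Over all genes, 16.3%, 24.1% and 27.7% were called higher in MMS D3, MMS D7 and MMS D14, 15.9% in R1 and 15.7% in R2. The shares called lower were 39.6%, 61.6%, 69.3%, 45.2% and 45.1% in the same order. Of 14 neutrophil and marrow markers the table held 2 haemoglobin genes, whose summed level was 682 to 1861 FPKM in MMS D14 and 2599 to 3284 FPKM in Control. Of 12 skeletal muscle markers the table held Myl1, at 27.5 to 136 FPKM in MMS D14 and 32.4 to 117 FPKM in Control. Against Control, Myl1 was called lower in MMS D3, MMS D7, R1 and R2 (log2 changes of -1.41, -1.49, -1.56 and -1.48). It was not called in MMS D14 (0.05). The correlation of Myl1 was -0.02 with Acp5 and -0.09 with Ctsk. Of 16 chondrocyte markers the table held 2, Comp and Sox9, with a summed level of 499 to 573 FPKM in MMS D14 and 159 to 178 FPKM in Control. Their part in the level of either enzyme was not tested.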

How the data were processed

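RNA was extracted with Trizol and libraries were made at BGI, per the labels' protocols. HISAT2 and mm10 are named in the submitters' processing notes; the counter, its annotation and its use of strand are not given in the sources used here. The authors deposited FPKM for synovium, per the file headers, and a normalised signal of unstated unit for cartilage; neither gives read totals, so the number of samples limits the precision. Members and gene lists were chosen with earlier results of these data known, and the adipocyte and collagen genes had already been described, so they are no independent support. All 1178 genes passed the filter (at least 1 FPKM in 3 samples). Values were analysed as log2(FPKM + 1) in limma 3.58.1 (R 4.3.3), with all 6 groups, a variance trend and no replicate block. Within a comparison, p-values of all genes were adjusted together (Benjamini-Hochberg), and adjusted p under 0.05 was a call. The fit was tested on simulated data. The labels do not say that a replicate number links samples. Deviations from group means of same-numbered samples correlated at -0.165 to 0.661, over 0.1 in 26 of 45 pairs. All 3 pairs were over 0.1 in 6 of 15 group pairs: R2 with MMS D3, MMS D14 and Control, MMS D14 with MMS D3 and Control, and MMS D3 with Control. Among these R2 against Control is tested for the pair, and the block changed neither call there. Comparisons with MMS D14 or MMS D3 values carry no test of the pair, since those values chose it; tests had been planned for some of them. Named by rule are both members, measured osteoclast and signal genes, up to 3 genes of highest mean from each other list, and the 5 genes most like and 3 least like each member, without predicted genes. Ibsp, Alpl, Pnpla2 and Lep fall outside the rule and were named after their values were seen. The planned cartilage comparisons were not run because that table lists neither gene. Positions are from GENCODE vM21 and sequences from RefSeq (GRCm38.p6), where both genes matched by symbol. Python 3.11.15, pandas 2.3.3, numpy 2.4.6 and matplotlib 3.10.9 were used.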

Additional observations from a re-analysis of the deposited data

How the results depend on the processing

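Alternatives tried were median centring of samples, adding 0.1 in place of 1, no filter, no variance trend, the replicate block, only the 2 groups compared, leaving out each of 18 libraries, and, chosen after seeing the data, leaving out the 5 libraries that stand apart. The calls of both genes in MMS D7, R1 and R2 against Control held under every one of these. Centring gave log2 changes of -1.26 for Acp5 and 2.49 for Ctsk in MMS D14 against Control, and of -0.39 and 0.72 in MMS D14 against MMS D7, with 407 genes called. The replicate block left the log2 change of Ctsk in MMS D14 against MMS D7 at 0.48. That comparison draws on the values that chose the pair, so no test of it is given. In the comparisons that are tested for the pair, the block changed no call. Each sample correlated best with its own number in 11 of 18 cases. Without the 5 libraries Acp5 stood at -1.01 in MMS D3 against Control, Ctsk at 0.46 in MMS D14 against MMS D7, and 186 genes were called in MMS D7 against MMS D3 and 14 in R2 against R1. Only the 2 groups gave 116 calls in MMS D7 against MMS D3, against 358. Leaving out 1 library gave -0.55 to -0.22 for Acp5 and -0.0069 to 0.46 for Ctsk in MMS D7 against MMS D3, with 147 to 597 genes called. In MMS D14 against MMS D7 it gave -0.81 to -0.53 for Acp5 and 0.37 to 0.58 for Ctsk, with 375 to 707 called, against 659. For Ctsk in R2 against R1 it gave -0.13 to 0.0253. The causes were not tested. The unknown depth and 3 samples a group limit what small steps could be shown.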

Other observations

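The cartilage table, whose signal has no stated unit, held 1 gene of the osteoclast list and 3 of the signals for osteoclast formation. Mmp9, a gelatinase of osteoclasts and neutrophils, had a signal of 430.6 and 413.2 in Control, 423.5 and 421 in MMS D3, 710.9 and 655 in MMS D7, 753 and 864 in MMS D14, and 720.3 and 581 in MMS D28. It was 585 and 562 in R1 and 357 and 381 in R2. Tnfrsf11b, which encodes the RANKL decoy receptor osteoprotegerin, had a signal of 117 and 93.1 in Control, 132.8 and 122.6 in MMS D3, 76.0 and 93.7 in MMS D7, 56.3 and 46.1 in MMS D14, 42.0 and 53.3 in MMS D28, 53.2 and 62.8 in R1 and 65.0 and 75.9 in R2. Mmp9 lay above both Control samples in MMS D7, MMS D14, MMS D28 and R1, and below both in R2. Tnfrsf11b lay above both Control samples in MMS D3 and below both in MMS D14, MMS D28, R1 and R2. The share of all cartilage genes that lay clear of Control in this way was not computed, so it sets neither gene apart. Il1b and Osm, inflammatory cytokines, were at low signal in all groups. Il1b had 14.83 and 13.39 in Control, 10.39 and 13.71 in MMS D3, 12.67 and 9.17 in MMS D7, 11.99 and 11.5 in MMS D14, 17.45 and 25.45 in MMS D28, 25.25 and 14.1 in R1 and 14.25 and 16.83 in R2, so that 1 R1 sample was close to the higher MMS D28 sample. Osm had 4.93 and 5.02 in Control, 2.88 and 3.44 in MMS D3, 4.1 and 2.86 in MMS D7, 4.66 and 5.09 in MMS D14, 11.02 and 10.47 in MMS D28, 6.87 and 6.6 in R1 and 4.91 and 6.19 in R2, below Control in MMS D3 and MMS D7 and highest in MMS D28. These genes were picked from lists chosen with earlier results known, the 2 samples of a group give no test here, and the levels cannot be set beside those of synovium, which were normalised separately.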
